A study of Mus musculus with 23 samples.

Results

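The basal and myoepithelial genes of the mammary gland, 10 of the 47643 genes in the deposited tables, were followed through every tumor library of a study on interleukin-38 (IL-38) in mouse mammary carcinoma. They were taken by symbol, after the Ensembl identifiers had been matched to GENCODE M21, and comprise the keratins Krt5, Krt14 and Krt17, the transcription factor Trp63, the contractile genes Acta2, Myh11, Cnn1, Mylk and Tagln, and the receptor Oxtr. All 10 were found in both tables, had reads in all 23 libraries and passed the filter on low values in every comparison. Each library holds RNA of a PyMT tumor, which forms in the mammary gland of mice that carry the polyoma virus middle T oncoprotein as a transgene. All mice were female with a C57BL/6 background, and all were given an antibody weekly over 5 weeks. In the neutralization experiment, wildtype (WT) mice received an IgG1 isotype control (5 libraries, IgG1) or an antibody against IL-38 (6 libraries, anti-IL-38). In the blockade experiment, WT mice received isotype IgG (4 libraries, WT + IgG), and mice with a knockout (KO) of IL-38 received isotype IgG (4 libraries, KO + IgG) or an antibody that blocks the γδ T-cell receptor (4 libraries, KO + anti-γδTCR). Treatment started at a set tumor size in the neutralization experiment and at a set age in the blockade experiment. The labels do not say which libraries share an animal, so p-values measure the spread between the libraries as labelled.

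The ducts and alveoli of the mammary gland are lined by an inner layer of luminal cells and wrapped in an outer layer of basal cells next to the basement membrane. The basal cells of the mature gland are myoepithelial: they carry basal keratins like the cells at the base of the epidermis, and a smooth muscle type of contractile machinery with which they squeeze milk out of the alveoli when oxytocin binds its receptor. The basal keratins are shared with skin, and the contractile genes are shared with the smooth muscle and pericytes of blood vessels and with activated fibroblasts, so in bulk tumor RNA no single one of these genes marks a myoepithelial cell. In such RNA, fewer cells of a type and less RNA per cell cannot be told apart.

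The 10 genes lie on 6 chromosomes. In GENCODE M21 on GRCm38, Krt5 lies on chr15:101707070-101712898 (minus strand), Krt14 on chr11:100203162-100207548 (minus) and Krt17 on chr11:100256217-100261029 (minus). Trp63, on chr16:25683763-25892102 (plus), shares its chromosome with Myh11 at chr16:14194535-14291372 (minus) and Mylk at chr16:34745210-35002420 (plus). Acta2 lies on chr19:34241090-34255590 (minus), Cnn1 on chr9:22099216-22109630 (plus), Tagln on chr9:45929619-45936058 (minus) and Oxtr on chr6:112473683-112489943 (minus). Since 5 of these genes encode smooth muscle proteins, their promoters were searched for the CArG box, the element bound by serum response factor. It was written as CC, then 6 bases of which at most 1 is G or C, then GG, a pattern that reads alike on both strands. Promoters of RefSeq (GRCm38.p6), which span 300 bases from 250 before to 50 after the start site, were at hand for 6 of the 10 genes (Krt5, Krt14, Acta2, Cnn1, Mylk and Oxtr). Acta2 held 2 matches, at 84 and at 34 bases before the start site, and the other 5 held none. Of all 32851 promoters of this length 9.98% held at least 1 match and 0.822% held 2 or more, while a core of A and T alone, found in none of the 6, stood in 1.63%. The TATA box TATAAA, searched on both strands, was in none of the 6 and in 13.6% of all promoters. The Acta2 matches are shown in capitals with 10 bases on each side, at chr19:34255438-34255467 and chr19:34255388-34255417 on the minus strand. Of the 250 bases before this start site, 217 lie in an exon of GENCODE, which starts the gene farther upstream. The promoter windows of Krt14 (chr11:100205981-100206280) and Mylk (chr16:34784700-34784999) lie inside these genes. The upstream starts that GENCODE gives for Krt14 and Mylk were thus not searched for either element. Below the matches stand upstream bases outside annotated exons for a contractile and a keratin gene without a match, Cnn1 (chr9:22099003-22099215, plus) and Krt5 (chr15:101712906-101713155, minus).
Acta2 first match: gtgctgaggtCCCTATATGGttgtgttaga
Acta2 second match: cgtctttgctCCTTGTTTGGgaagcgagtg
Cnn1 upstream: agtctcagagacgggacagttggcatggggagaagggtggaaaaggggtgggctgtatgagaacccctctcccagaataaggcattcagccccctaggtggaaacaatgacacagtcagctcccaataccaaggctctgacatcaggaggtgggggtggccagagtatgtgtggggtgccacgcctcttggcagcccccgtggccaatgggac
Krt5 upstream: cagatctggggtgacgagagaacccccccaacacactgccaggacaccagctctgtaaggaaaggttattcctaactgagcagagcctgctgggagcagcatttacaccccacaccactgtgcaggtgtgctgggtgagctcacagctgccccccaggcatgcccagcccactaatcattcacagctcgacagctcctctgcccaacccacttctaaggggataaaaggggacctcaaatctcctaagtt

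The libraries held 6273049 to 15879164 reads on genes. The lowest totals, 6273049 to 8794202, belonged to KO + IgG replicate 4 and the 4 KO + anti-γδTCR libraries, against 10138353 to 15879164 in the other 18. In these 5 libraries processed pseudogenes took 1.31 to 1.98% of the reads (0.0943 to 0.191% in the others), Gm42418 took 11.3 to 20.1% (2.62 to 5.70%), and 10 leukocyte genes summed to 374 to 488 CPM (954 to 2362; CPM are reads scaled to the library total). For the members whose values moved most without KO + IgG replicate 4, both values are given. Il1f10, which encodes IL-38, had no read in any library, which allows up to 0.189 to 0.478 CPM (3 counts), so its level checks no genotype label. Epithelial genes were high in every library, with Epcam at 220 to 1045 CPM and Cdh1 at 725 to 1487 CPM.

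Levels are given in CPM, computed from whole reads that were recovered from the deposited values, since this scale holds all 5 groups. QuantSeq reads come from the 3′ end of each transcript, so a level does not grow with transcript length. Among the keratins, Krt5, the basal partner of Krt14 in the intermediate filaments of stratified epithelium, was at 23.4, 15.7, 55.4, 21.5 and 2.68 CPM in the 5 IgG1 tumors. In anti-IL-38 tumors Krt5 ranged from 5.33 to 145 CPM with a median of 14.8. It was at 54.2, 41.8, 47.8 and 18.3 CPM in WT + IgG, at 35.3, 25.1, 25.3 and 41.2 CPM in KO + IgG, and at 24.7, 82.5, 58.3 and 43.1 CPM in KO + anti-γδTCR. The groups overlapped throughout, and the neutralization experiment held both the highest and the lowest Krt5 level of the series.

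Krt14, the type I keratin that pairs with Krt5, was at 19.96, 26.3, 67.4, 51.2 and 21.7 CPM in IgG1 tumors. In anti-IL-38 tumors it ranged from 4.73 to 54.9 CPM with a median of 21.3. In WT + IgG it was at 28.2, 31.0, 31.7 and 33.2 CPM. These 4 WT tumors lay within 1.18-fold of each other, the narrowest range of any member in any group. In KO + IgG, Krt14 was at 24.8, 28.2, 31.5 and 17.4 CPM, and in KO + anti-γδTCR at 19.6, 44.1, 22.2 and 58.9 CPM, so the order of the group medians (WT + IgG and KO + anti-γδTCR above KO + IgG, IgG1 and anti-IL-38) held no step larger than the spread within groups.

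Krt17, a keratin of basal cells and of stressed or wounded epithelium, was the member with the lowest median over all libraries, 5.36 CPM. Its group medians ran from 3.76 CPM in IgG1 to 6.46 CPM in KO + anti-γδTCR, and its lowest library, KO + anti-γδTCR replicate 1, held 13 reads (1.62 CPM, exact 95% Poisson interval 0.864 to 2.78, which covers counting error only). The highest Krt17 level, 24.5 CPM, was in anti-IL-38 replicate 2, where Krt5 was also highest. Of the 451 words of 50 bases at the 3′ end of the Krt14 transcript and of the Krt17 transcript, 9.53% occur in the other or in Krt16, so some reads of this pair could be counted for either or lost; the other 8 members shared none with any gene.

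Trp63 encodes p63, the transcription factor that maintains the basal layer of stratified epithelia and of the mammary gland; reads from the transcript end do not separate its forms with different start sites. It was at 10.02, 7.87, 10.9, 6.35 and 5.51 CPM in IgG1 tumors and ranged from 1.68 to 19.8 CPM in anti-IL-38 tumors (median 7.18). It was at 17.8, 12.6, 12.8 and 13.96 CPM in WT + IgG, at 20.4, 14.6, 14.1 and 11.6 CPM in KO + IgG, and at 6.87, 34.5, 16.9 and 17.9 CPM in KO + anti-γδTCR. In CPM, every WT + IgG and KO + IgG tumor was above every IgG1 tumor, while the KO + IgG and WT + IgG tumors overlapped. In the deposited normalized counts KO + IgG and IgG1 overlapped, with KO + IgG replicate 4 at 141.02 and IgG1 replicate 3 at 141.65.

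**Figure D1:**
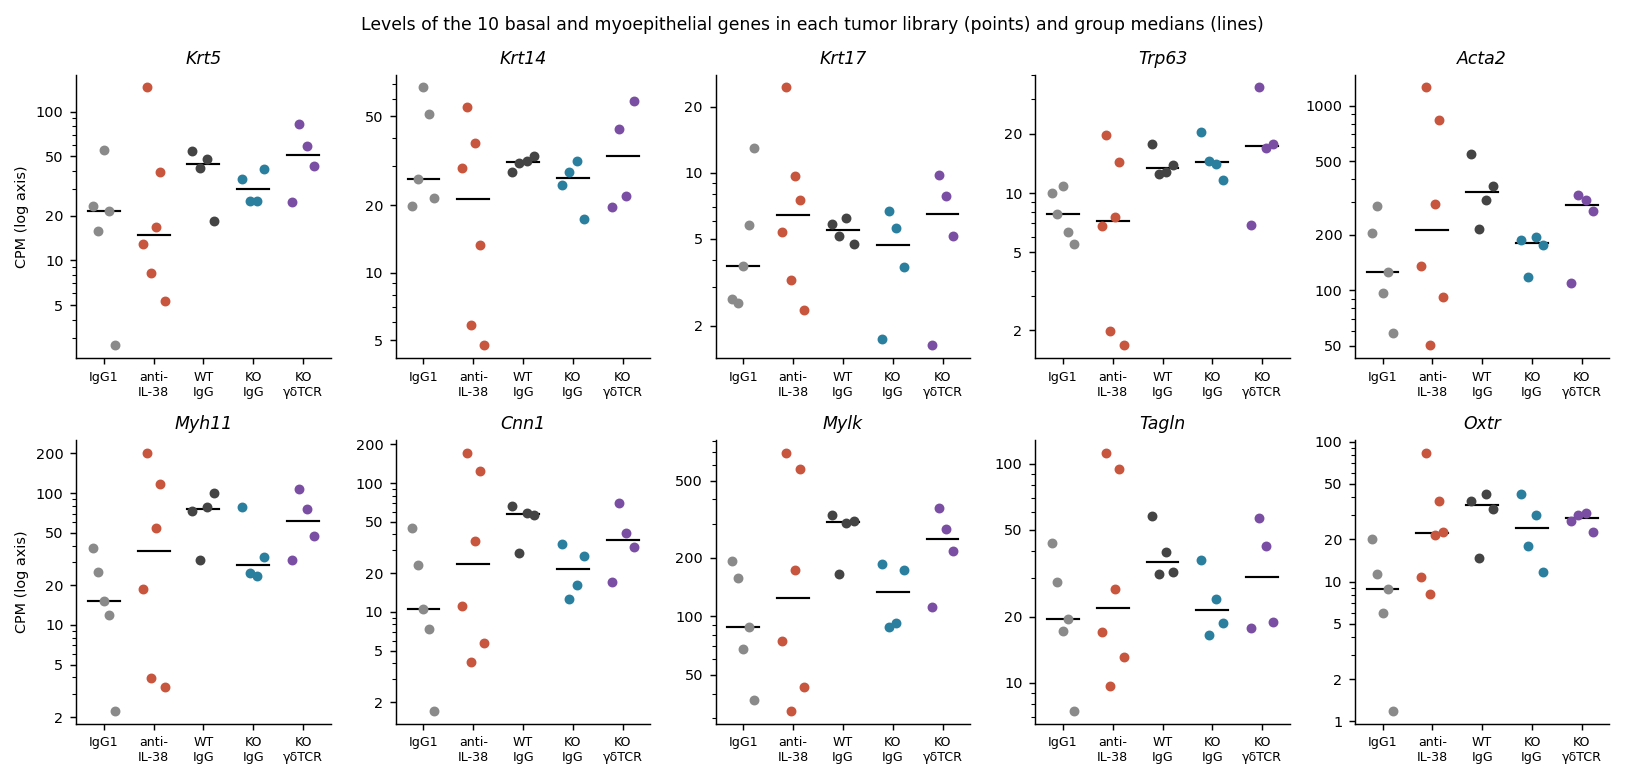
Level of each of the 10 genes in CPM (log axis, its own scale in each panel) in the 23 tumor libraries, with 1 point per library, replicates from left to right, and a line at the median of each group. The anti-IL-38 tumors span 25.1-fold for Acta2 and 60.3-fold for Myh11, whereas Krt14 in WT + IgG tumors spans 1.18-fold.

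Of the contractile genes, Acta2, which encodes smooth muscle α-actin, was at 204, 285, 96.3, 125 and 58.7 CPM in IgG1 tumors. In anti-IL-38 tumors it ranged from 50.1 to 1259 CPM with a median of 213. It was at 545, 214, 309.8 and 369 CPM in WT + IgG, at 187, 118, 193 and 175 CPM in KO + IgG, and at 109, 330.2, 307 and 269 CPM in KO + anti-γδTCR. By group medians the order was WT + IgG (339 CPM), KO + anti-γδTCR (288), anti-IL-38 (213), KO + IgG (181) and IgG1 (125). Neighbours in that order overlapped, but all 4 KO + IgG tumors were below all 4 WT + IgG tumors.

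Mylk encodes myosin light chain kinase, which starts smooth muscle contraction by phosphorylating the light chain. It was at 193, 157, 67.9, 88.0 and 36.9 CPM in IgG1 tumors and ranged from 32.6 to 696 CPM in anti-IL-38 tumors (median 124). It was at 332, 164, 302 and 309 CPM in WT + IgG, at 185, 87.8, 92.9 and 174 CPM in KO + IgG, and at 112, 359.7, 282 and 218 CPM in KO + anti-γδTCR. In WT + IgG, 3 of 4 tumors were above all 4 KO + IgG tumors and replicate 2 lay among them.

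Cnn1 encodes calponin 1, an actin-binding regulator of smooth muscle, and was at 65.9, 28.6, 58.3 and 56.7 CPM in WT + IgG against 33.5, 12.7, 16.1 and 27.3 CPM in KO + IgG. It was at 45.1, 23.2, 10.5, 7.33 and 1.71 CPM in IgG1 tumors, ranged from 4.12 to 172 CPM in anti-IL-38 tumors (median 23.3), and was at 17.1, 70.1, 40.7 and 32.1 CPM in KO + anti-γδTCR. WT + IgG replicate 2 was again the lowest of the WT tumors and the only one within the range of the KO + IgG tumors. Myh11, the smooth muscle myosin heavy chain, was at 73.2, 31.1, 78.6 and 99.9 CPM in WT + IgG and at 77.8, 24.7, 23.6 and 32.7 CPM in KO + IgG. In the other groups Myh11 was at 38.2, 25.3, 15.1, 11.8 and 2.23 CPM in IgG1, from 3.35 to 202 CPM with a median of 36.4 in anti-IL-38, and at 31.3, 108, 75.9 and 47.3 CPM in KO + anti-γδTCR. KO + IgG replicate 1 stood apart from the other 3 KO + IgG tumors for Myh11 and lay within the WT range. Tagln, which encodes transgelin or SM22α, had group medians of 19.6 CPM in IgG1, 21.99 in anti-IL-38, 35.7 in WT + IgG, 21.4 in KO + IgG and 30.5 in KO + anti-γδTCR, over a range of 7.44 to 112 CPM.

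Oxtr, the oxytocin receptor, was at 20.1, 11.3, 5.94, 8.82 and 1.19 CPM in IgG1 tumors. In anti-IL-38 tumors it ranged from 8.08 to 83.4 CPM with a median of 22.1. It was at 37.4, 14.7, 42.0 and 33.3 CPM in WT + IgG, at 42.6, 17.8, 30.1 and 11.7 CPM in KO + IgG, and at 27.2, 30.02, 31.1 and 22.5 CPM in KO + anti-γδTCR. In anti-IL-38, 5 of 6 tumors were above the IgG1 median and 4 of 6 above every IgG1 tumor. The 3 groups of the blockade experiment overlapped, and their spread ran from 1.38-fold (lowest to highest) in KO + anti-γδTCR to 3.63-fold in KO + IgG.

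The members varied more between tumors of 1 group than most genes did. With group means removed over the 19 libraries of 1 table, the standard deviation of log2(normalized count + 1) was 1.68 for Myh11, 1.62 for Cnn1, 1.33 for Krt5, 1.21 for Mylk, 1.16 for Acta2, 1.13 for Oxtr and 1.00 for Tagln. It was lower for Krt14 (0.937), Krt17 (0.925) and Trp63 (0.851), and the median over 16352 genes was 0.39. Myh11 lay at the 98.1st percentile of all genes and Trp63, the lowest member, at the 81.7th. The spread was uneven over groups: for Acta2 it was 1.79 in anti-IL-38 tumors, 0.878 in IgG1, 0.528 in WT + IgG and 0.346 in KO + IgG.

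The next question was which members varied together. All 45 pairs were correlated over the 19 libraries with group means removed, with p from 100000 permutations within groups and Benjamini-Hochberg adjustment over the pairs; the tumors share the 2 experiments. The 5 contractile genes varied together. All 10 of their pairs passed the threshold of 0.05, with Pearson r from 0.911 to 0.974 and from 0.862 to 0.977 after the 2 libraries farthest from the median were left out. Acta2 and Mylk had r = 0.966 (rho 0.928, r without 2 libraries 0.944, permutation p = 1e-05, the smallest the permutations can give, adjusted p = 6.43e-05). Cnn1 and Mylk had the highest r of any pair, 0.974 (rho 0.986, without 2 libraries 0.977, permutation adjusted p = 6.43e-05). Within the neutralization experiment (11 libraries) contractile pairs had r from 0.940 to 0.988, and within the 8 libraries of WT + IgG and KO + IgG from 0.528 to 0.986, where no pair of any kind passed the threshold after adjustment. Oxtr varied with all 5 contractile genes (r = 0.756 to 0.847), and Tagln and Oxtr stood highest with r = 0.847 (rho 0.905, without 2 libraries 0.842, permutation adjusted p = 0.00018).

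Of the 6 pairs among the keratins and Trp63, 1 passed, Krt5 and Trp63 (r = 0.772, rho 0.637, without 2 libraries 0.737, permutation adjusted p = 0.00177). Trp63 passed with all 5 contractile genes and was nearest to Myh11 (r = 0.899, rho 0.814, without 2 libraries 0.825, permutation adjusted p = 0.000525). Krt5 also passed with all 5, for example Acta2 (r = 0.715, rho 0.663, without 2 libraries 0.541, permutation adjusted p = 0.0141). Krt14 and Krt17 passed with no member. The highest r of Krt14 with a member was that with Trp63 (r = 0.7195, rho 0.491, without 2 libraries 0.416, permutation adjusted p = 0.0613). Krt5 and Krt14, partners in 1 filament, had r = 0.617 (rho 0.282, without 2 libraries 0.476, permutation p = 0.0408, adjusted p = 0.0613), with r = 0.680 in the neutralization experiment and -0.58 in the 8 libraries of the genotype comparison. Krt14 and Acta2 had r = 0.468 (rho 0.219, without 2 libraries 0.108, permutation adjusted p = 0.288), and the 2 libraries left out there were anti-IL-38 replicates 2 and 6. Krt17 and Oxtr had r = -0.07 (adjusted permutation p = 0.796).

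**Figure D2:**
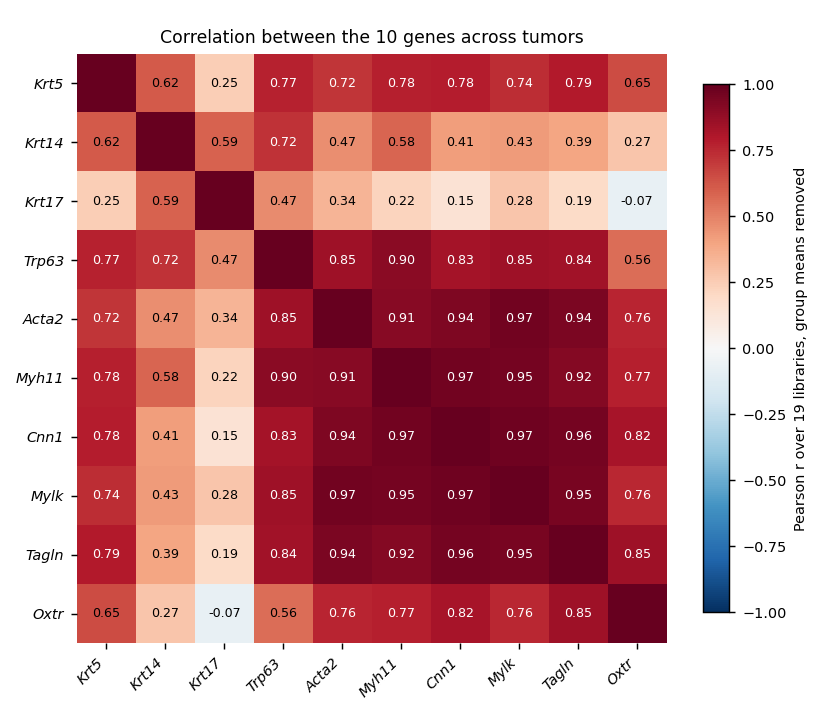
Pearson r between each pair of the 10 genes over 19 tumor libraries, on log2(normalized count + 1) with the mean of each group removed; the color scale runs from -1 to 1. The square of the 5 contractile genes holds 0.911 to 0.974, and the cells of Krt14 and Krt17 are paler, down to -0.07 for Krt17 and Oxtr.

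Among the 13608 genes whose mean reached 20 normalized counts, those most like Acta2 by r over the same 19 libraries were Mylk (0.966), Myl9 (0.953), Tagln (0.945), Tgfb1i1 (0.938) and Cnn1 (0.937). Myl9 encodes the regulatory light chain that Mylk acts on, and Tgfb1i1 encodes the focal adhesion protein Hic-5. Myh11 ranked at 10, Trp63 at 41, Oxtr at 102 and Krt5 at 169, but Krt14 at 1064 and Krt17 at 1993. The genes most like Krt14 were others: Elovl7 (0.877), a fatty acid elongase, Fxyd6 (0.856), a sodium pump regulator, Lamb3 (0.850), a chain of the laminin under basal epithelial cells, Rftn2 (0.844) and Dpep1 (0.825), a dipeptidase. Trp63 ranked at 62 for Krt14, Krt5 at 245, Krt17 at 314 and Acta2 at 838. These ranks are a description with no test.

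Because other cells express the same genes, lists of their markers were set beside the members. The 10 vascular mural genes (among them Rgs5, Pdgfrb and Notch3) summed to 99.7 to 262 CPM over the 23 libraries, a far narrower range than the 100.5 to 2441 CPM of the 5 contractile members. Some mural genes ranged more widely than this sum. Abcc9 ran from 3.91 to 92.3 CPM and Kcnj8 from 3.35 to 51.7 CPM, while Rgs5 ran from 23.1 to 72.9 CPM. The summed mural level and Acta2 had r = -0.28 over 19 libraries (rho -0.18, permutation adjusted p = 0.749). Acta2 and 10 fibroblast genes (1253 to 9876 CPM) had r = 0.271 (rho 0.0790, permutation adjusted p = 0.641). The 20 other smooth muscle genes summed to 1090 to 3077 CPM and 19 of them had reads in every library, among them Myl9 (7.84 to 149.98 CPM), Lmod1 (2.38 to 43.3), Itga8 (3.25 to 21.9), Actg2 (0.317 to 23.96) and Des (0.0744 to 10.8). Myocd, a cofactor of serum response factor, had no read in 12 libraries and at most 5. The part of smooth muscle in the contractile values was not tested. The 12 keratinocyte genes summed to 5.20 to 38.2 CPM, against 1.62 to 24.5 CPM for Krt17. Krt10 (1.72 to 17.2 CPM) and Sbsn (1.16 to 6.42) had reads in every library and Flg reached 10.3 CPM, while Ivl was at 0 in 14 libraries, Flg2 in 15 and Krt2 in 14, and 8 hair follicle genes summed to 1.62 to 29.0 CPM. The 18 luminal genes summed to 2082 to 6153 CPM. Krt5 and the luminal sum had r = 0.767 (rho 0.358, without 2 libraries 0.581, permutation p = 0.00453, adjusted p = 0.0747). Krt14 and the luminal sum had r = 0.658 (rho 0.463, adjusted permutation p = 0.0747). Krt14 and 8 endothelial genes had r = 0.611 (rho 0.753, adjusted permutation p = 0.0747 by r and 0.0577 by rho). Krt14 and 10 skeletal muscle genes had r = 0.487 (rho 0.7105, without 2 libraries 0.859, adjusted permutation p = 0.406 by r and 0.0591 by rho). None of the 28 relations between Krt5, Krt14, Acta2 or Oxtr and a marker list passed after adjustment, by r or by rho; these relations were chosen after seeing the data.

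**Figure D3:**
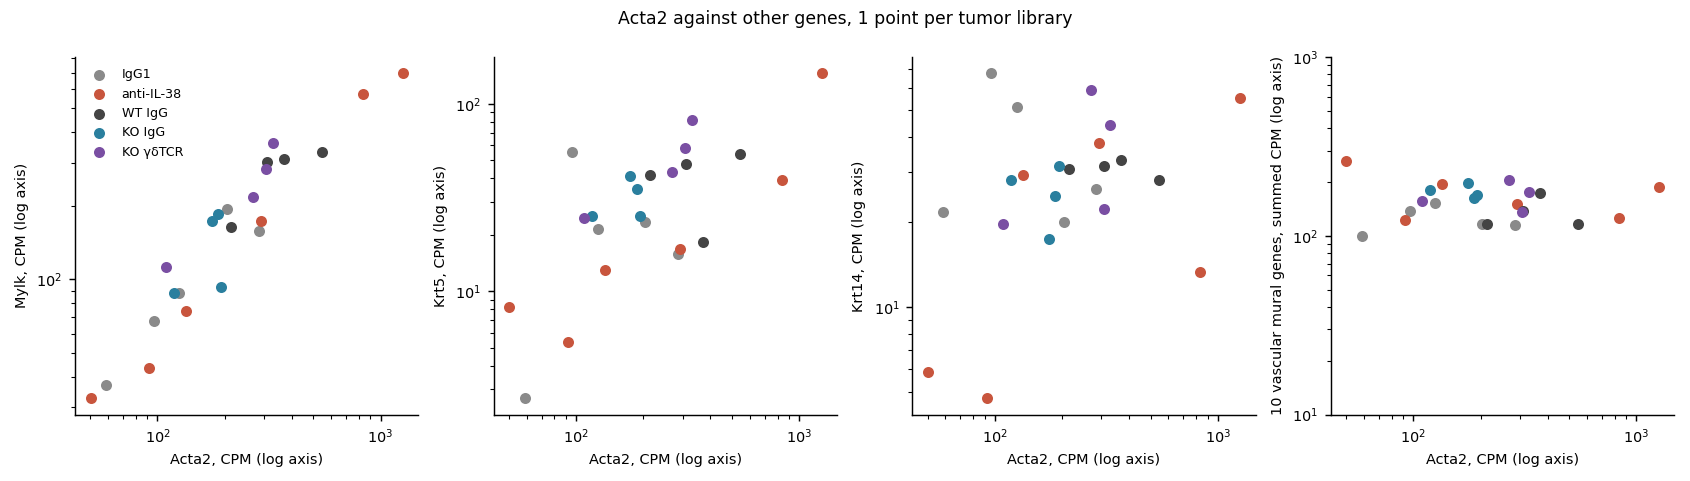
Acta2 against Mylk, Krt5, Krt14 and the sum of 10 vascular mural genes, all in CPM on log axes, with 1 point per tumor library colored by group (23 points). Mylk follows Acta2 over its whole range of 50.1 to 1259 CPM, Krt14 scatters between 4.73 and 67.4 CPM, and the mural sum stays between 99.7 and 262 CPM.

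To ask whether neutralizing IL-38 went with a different level of these genes, anti-IL-38 tumors (n = 6) were compared with IgG1 tumors (n = 5). Fold changes are on the log2(normalized count + 1) scale with their standard error, from limma with Benjamini-Hochberg adjustment over all genes. Of the 10 members, 8 had a positive and 2 a negative log2 fold change, and none passed the threshold, as did none of 16002 genes (0.0%); without adjustment 1682 genes had p under 0.05, and edgeR called 0 genes and DESeq2 75. The median of the members was 0.62 and that of all genes 0.00. Only Oxtr had an unadjusted p under 0.05 among the members (1 of 10; 5.61% of all genes did so in the higher direction). Its mean normalized count was 398 ± 362 (SD, n = 6) with anti-IL-38 and 118 ± 85.1 (n = 5) with IgG1, a log2 fold change of 1.77 ± 0.66 (p = 0.0182, adjusted p = 0.425, exact permutation p = 0.0433). The value of Oxtr was 1.17 without IgG1 replicate 5, the lowest with any 1 library left out. No member had groups without overlap, against 0.4% of genes with all anti-IL-38 above all IgG1 values.

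The 5 contractile genes each had a positive log2 fold change in this comparison, from 0.60 (Tagln) to 1.22 (Cnn1), with standard errors of 0.62 to 1.03, and no difference stood clear of the spread between tumors. Acta2 had a mean normalized count of 5706 ± 6362 with anti-IL-38 and 1932 ± 1138 with IgG1 (log2 fold change 0.90 ± 0.72, adjusted p = 0.649, exact permutation p = 0.333). Anti-IL-38 replicates 2 and 5 held 1259 and 835 CPM of Acta2, and without replicate 2 the log2 fold change of Acta2 was 0.43 and that of Mylk 0.18 in place of 0.64. Krt14 had the lowest value, -0.92 ± 0.59 (adjusted p = 0.579), and 3 of 6 anti-IL-38 tumors were below every IgG1 tumor. Krt5 (0.30 ± 0.82), Krt17 (0.56 ± 0.56) and Trp63 (-0.32 ± 0.55) differed by no more than about their standard errors. The value of Krt5 turned to -0.28 without anti-IL-38 replicate 2 and to -0.34 without IgG1 replicate 5, and that of Trp63 to 0.05 without anti-IL-38 replicate 6. Among the other lists, 18 of 19 tested smooth muscle genes and 16 of 23 tested basal epithelial genes had a positive value, none passing. Egfr (0.96 ± 0.18, adjusted p = 0.315), the epidermal growth factor receptor of basal cells, and Krt16 (-1.82, adjusted p = 0.482) had the smallest p of the basal list, and Myl6 (0.83, adjusted p = 0.408) and Lmod1 (1.29, adjusted p = 0.455) of the smooth muscle list. No gene of the other cell types passed either. Of 10 mural genes 9 had a positive value (median 0.53), with Mcam (0.79, adjusted p = 0.418) and Pdgfrb (0.71, adjusted p = 0.425) first, as had 10 of 10 fibroblast genes (median 0.46) and 18 of 18 luminal genes (median 0.71, with Areg at 2.78, adjusted p = 0.326, and Pgr at 2.42, adjusted p = 0.418). Leukocyte genes had 3 of 9 lower at an unadjusted p under 0.05 (median -0.24). Their part in the values of the members was not tested.

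The comparison of KO + IgG with WT + IgG tumors (n = 4 each) asks whether the same genes differ where the IL-38 gene was knocked out. The contractile genes were lower in the knockout tumors, with log2 fold changes of -1.24 ± 0.33 for Cnn1, -1.04 ± 0.29 for Mylk, -1.01 ± 0.26 for Acta2, -0.87 ± 0.40 for Myh11 and -0.74 ± 0.26 for Tagln. None passed the threshold, and of all 16563 genes 1 did (0.00604%). An unadjusted p under 0.05 was reached by 4 members, all lower (5.4% of all genes did so): Acta2 (adjusted p = 0.210), Cnn1 (adjusted p = 0.232), Mylk (adjusted p = 0.247) and Tagln (adjusted p = 0.320). The mean normalized count of Acta2 was 2008 ± 427 in KO + IgG and 4181 ± 1539 in WT + IgG, and the fitted log2 fold change corresponds to 2.02-fold. Acta2 was the only member whose groups did not overlap (1 of 10; 3.41% of all genes were lower in this way), with an exact permutation p of 0.0286, the smallest that 4 against 4 allows. Cnn1 was at 267 ± 116 against 610 ± 181 (exact permutation p = 0.0571) and Mylk at 1610 ± 626 against 3225 ± 834.03 (exact permutation p = 0.0857).

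Among the keratins and Oxtr no unadjusted p was under 0.05 in the knockout. Krt5 (-0.25 ± 0.32), Krt14 (-0.29 ± 0.18), Krt17 (-0.43 ± 0.37) and Oxtr (-0.35 ± 0.40) had negative values with adjusted p of 0.538 to 0.770, and Trp63 had 0.09 ± 0.20 (adjusted p = 0.870). The 95% interval of Trp63 by normal approximation ran from -0.30 to 0.49, which is narrower than the t distribution of limma would give. The median of the 10 members was -0.58 and that of all genes 0.01. Of 19 tested other smooth muscle genes 6 were lower and 1 higher at an unadjusted p under 0.05, none passing, with Myl9 (-1.11 ± 0.29, adjusted p = 0.231) and Csrp1 (-0.62, adjusted p = 0.260) first. Of 22 tested other basal genes 2 were higher, Itga6 (0.75, adjusted p = 0.285) and Perp (0.50, adjusted p = 0.315), and 2 lower at that level, with a median of 0.00. Of the mural genes 2 of 9 were higher, Mcam (1.23, adjusted p = 0.210) and Abcc9 (0.95, adjusted p = 0.260), and none lower. Without a gene passing, adipocyte genes had negative values in 6 of 7 (median -1.06, and -1.45 without KO + IgG replicate 4) and leukocyte genes in 9 of 9 (-0.78, and -0.39 without it). Luminal genes, none passing, had negative values in 10 of 18 and positive values in 8. At an unadjusted p under 0.05, 4 luminal genes were lower, led by Krt7 (-0.67, adjusted p = 0.210) and Krt19 (-0.74, adjusted p = 0.210). At that level 2 were higher, among them Cdh1 (0.49, adjusted p = 0.351). Skeletal muscle genes had positive values in 10 of 10 (median 1.93 with 2 genes at an unadjusted p under 0.05, and 2.90 with 8 without KO + IgG replicate 4). Their part in the values of the members was not tested.

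The knockout values kept their sign for all 5 contractile genes when any 1 of the 8 libraries was left out. Without KO + IgG replicate 4, whose RNA measures stand apart, Cnn1 was at -1.38 ± 0.33 (adjusted p = 0.119), Mylk at -1.20 ± 0.28 (adjusted p = 0.110) and Acta2 at -1.05 ± 0.27 (adjusted p = 0.136), while Oxtr was at -0.05 ± 0.35 and Krt14 at -0.13 ± 0.15. On whole reads, DESeq2 called 3 members lower (0.507% of all genes), Acta2 (-1.05, adjusted p = 0.00972), Cnn1 (-1.19, adjusted p = 0.0219) and Mylk (-0.99, adjusted p = 0.0333), and edgeR on the same reads called none, with adjusted p of 0.255, 0.265 and 0.278.

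**Figure D4:**
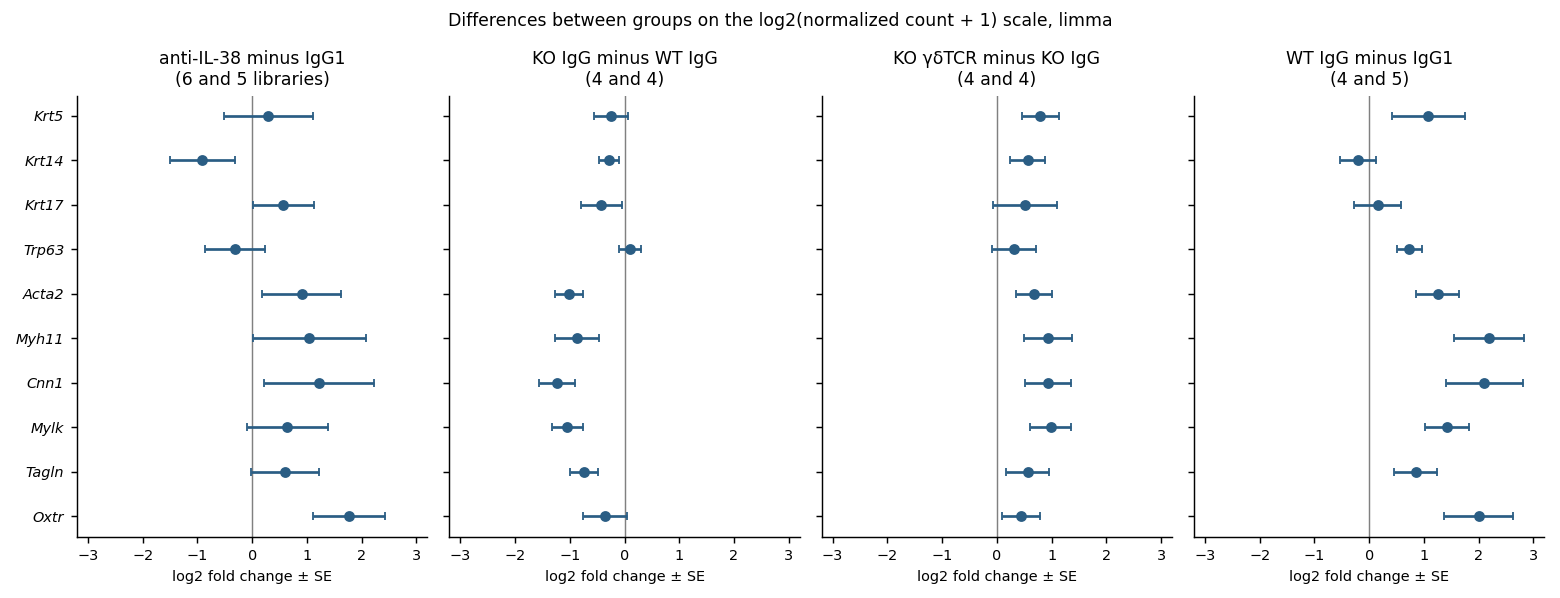
Log2 fold change (x axis) of each of the 10 genes with its standard error in 4 comparisons, from limma on log2(normalized count + 1). The 5 contractile genes sit between -1.24 and -0.74 for KO + IgG minus WT + IgG and between 0.85 and 2.19 for WT + IgG minus IgG1, and in KO + anti-γδTCR minus KO + IgG all 10 genes are above 0.

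Blocking the γδ T-cell receptor in IL-38 KO mice was compared with isotype IgG in the same genotype (n = 4 each), within the table that holds these 8 libraries. All 10 members had a positive log2 fold change, from 0.31 (Trp63) to 0.99 (Mylk), with a median of 0.62 against 0.02 over all genes. CPM scaling moved the median of all genes to -0.15 here and left all 10 members above 0. None passed the threshold, nor did any of 16481 genes (0.0%), although 3570 genes had an unadjusted p under 0.05; edgeR called 0 genes and DESeq2 1036, none of them a member. An unadjusted p under 0.05 was reached by 3 members (12.7% of all genes did so in the higher direction). They were Mylk (2503 ± 1074 against 1233 ± 480 normalized counts, log2 fold change 0.99 ± 0.37, p = 0.0238, adjusted p = 0.152, exact permutation p = 0.114), Krt5 (537 ± 245 against 290.2 ± 78.8, 0.79 ± 0.34, p = 0.0394, adjusted p = 0.202, exact permutation p = 0.114) and, at the edge of the threshold, Cnn1 (0.94 ± 0.42, p = 0.049997, adjusted p = 0.231, exact permutation p = 0.114). In normalized counts, 3 of 4 blocked tumors were above every KO + IgG tumor for Mylk, Krt5, Cnn1 and Acta2 (in CPM, 2 of 4 for Cnn1), and replicate 1 was below their median. The value of Trp63 rested on replicate 2 of the blocked tumors and was -0.02 without it. No member had groups without overlap, against 4.57% of genes on the higher side.

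The groups of this comparison also differ in the features of the libraries. All 4 KO + anti-γδTCR libraries and KO + IgG replicate 4 had low totals, many pseudogene reads and a low leukocyte sum. The γδ TCR antibody and these features cannot be told apart beyond that 1 library. KO + IgG replicate 4 itself held 41.2 CPM of Krt5, 174 CPM of Mylk and 17.4 CPM of Krt14, against 24.7 to 82.5, 112 to 359.7 and 19.6 to 58.9 CPM in the blocked tumors. Without this library 1557 genes were called higher (9.45%) but still no member, and Mylk was at 1.16 ± 0.37 (adjusted p = 0.0654), Krt5 at 0.95 ± 0.34 (adjusted p = 0.0947), Cnn1 at 1.09 ± 0.44 (adjusted p = 0.138) and Oxtr at 0.15 ± 0.28. Genes of the other lists called then included Itgb4 (0.79, adjusted p = 0.0233), an integrin of the hemidesmosome, Sfn (0.80, adjusted p = 0.0247), Flna (1.08, adjusted p = 0.00172), an actin crosslinker, the luminal keratin Krt18 (0.69, adjusted p = 0.0115) and the skin keratin Krt1 (2.43, adjusted p = 0.0121), all higher, and the leukocyte genes Itgax (-3.04, adjusted p = 2.15e-07) and Cd68 (-2.69, adjusted p = 1.26e-05), lower. With all libraries, 17 of 19 other smooth muscle genes and 15 of 22 other basal genes had a positive value and none passed; Flna (0.88, adjusted p = 0.0657), Smtn (0.49, adjusted p = 0.0730), Itgb4 (0.68, adjusted p = 0.0857) and Dst (0.56, adjusted p = 0.132) had the smallest p. All 18 luminal genes were also positive, with a median of 0.41. Of 9 tested leukocyte genes 4 had a positive value and 5 a negative one, with or without KO + IgG replicate 4. Ptprc was at 0.36 with all libraries. The 4 leukocyte genes called without that replicate were Itgax, Cd68, Adgre1 and Csf1r, all lower.

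**Figure D5:**
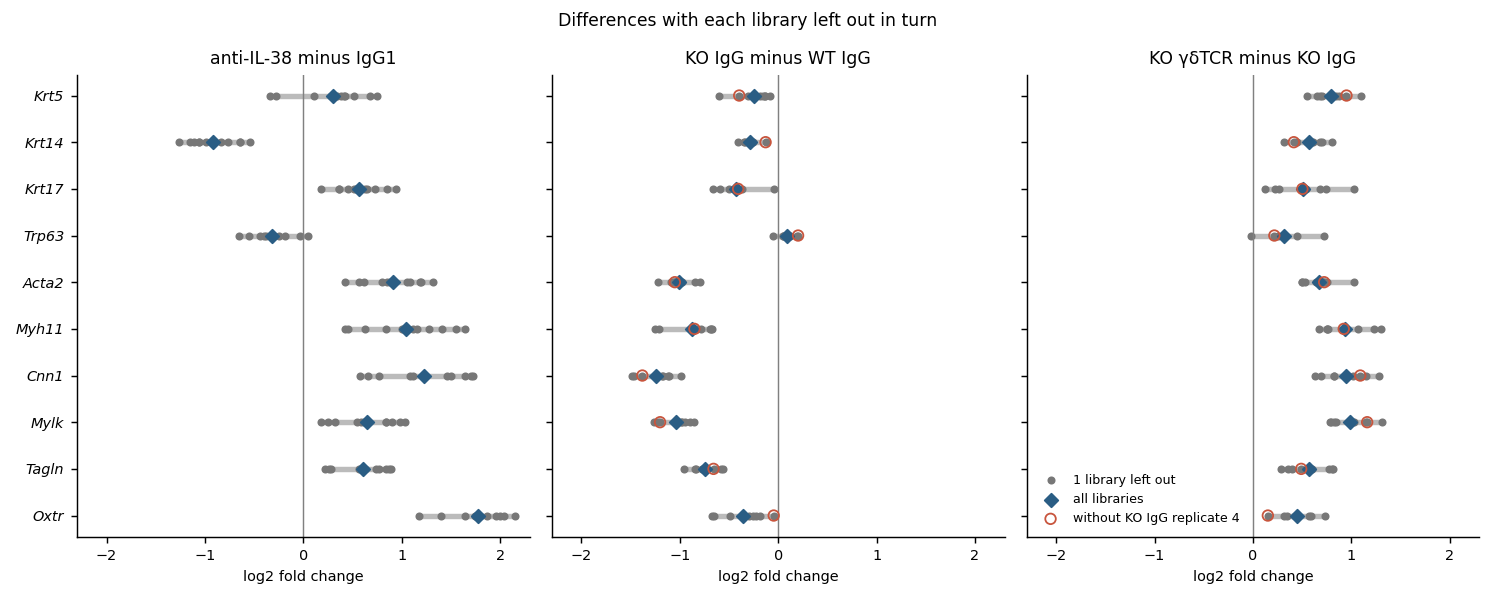
Log2 fold change (x axis) of each of the 10 genes in 3 comparisons with all libraries (diamonds), with each library left out in turn (grey points) and without KO + IgG replicate 4 (open circles). For KO + IgG minus WT + IgG the contractile genes stay below 0 in every fit, while in anti-IL-38 minus IgG1 the value of Krt5 runs from -0.34 to 0.75.

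The control groups of the experiments were compared as well. WT + IgG (n = 4) and IgG1 (n = 5) tumors are both from WT mice with an isotype antibody, so this comparison measures how far the controls lie apart. By the methods of the study, these mice also differed in the isotype antibody (Armenian hamster IgG or human IgG1), its dose and the start of treatment. These features cannot be told apart from other differences between the experiments. An unadjusted p under 0.05 was reached by 6 of 10 members, all higher in WT + IgG (9.49% of all genes did so): Myh11 (2.19 ± 0.64, adjusted p = 0.138), Cnn1 (2.10 ± 0.70, adjusted p = 0.166), Oxtr (1.998 ± 0.63, adjusted p = 0.150), Mylk (1.42 ± 0.40, adjusted p = 0.128), Acta2 (1.25 ± 0.39, adjusted p = 0.150) and Trp63 (0.73 ± 0.23, adjusted p = 0.156). None passed the threshold and 16 of 16099 genes did (0.0994%); DESeq2 called Mylk (1.24, adjusted p = 0.0272; 2.25% of all genes were called higher). Trp63, at 167 ± 25.5 against 102 ± 29.7 normalized counts, was the only member whose groups did not overlap (3.57% of all genes were higher in this way; exact permutation p = 0.0159). Krt14 (-0.20 ± 0.33) and Krt17 (0.16 ± 0.43) were the members with the smallest differences. Without IgG1 replicate 5, where the contractile genes were lowest of the IgG1 tumors, the values were 1.57 for Myh11, 1.46 for Cnn1, 1.10 for Mylk, 0.96 for Acta2 and 0.50 for Tagln. CPM scaling moved the median of all genes to 0.13 here.

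Among 19 tested smooth muscle genes 8 were higher at an unadjusted p under 0.05, led by Ppp1r12b (0.87, adjusted p = 0.111) and Myl9 (1.47, adjusted p = 0.121), and among 22 tested basal genes 4 were higher, led by Dst (0.60, adjusted p = 0.108) and Lama3 (1.23, adjusted p = 0.121), with none passing. Adipocyte genes passed in 3 of 7, all higher in WT + IgG: Fabp4 (1.74, adjusted p = 0.0192), Cidec (3.17, adjusted p = 0.0192) and Adipoq (2.67, adjusted p = 0.0293). The count was 0 without WT + IgG replicate 1, 2 or 4, 5 under CPM scaling and 6 in DESeq2. At the unadjusted level 6 of 10 fibroblast genes were higher, with Lum (1.64, adjusted p = 0.0938) first, and 6 of 18 luminal genes (median 0.42), with Aldh1a3 (1.79, adjusted p = 0.0759) first. Leukocyte genes had 6 of 9 lower at that level (median -0.48), with Adgre1 (-0.48, adjusted p = 0.121) and Itgax (-0.60, adjusted p = 0.131) first. The part of these lists in the values of the members was not tested. The mural genes split 4 higher to 6 lower, with a median of -0.08.

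Pooling both experiments, as IL-38 inhibited by antibody or knockout (n = 10) against both controls (n = 9), left most values near 0. This fit held no term for the experiment, so its standard errors include the difference between the experiments. The members ran from -0.66 ± 0.37 for Krt14 (adjusted p = 0.527) to 0.83 ± 0.52 for Oxtr (adjusted p = 0.562), with a median of 0.06 against 0.00 over all genes. None passed, nor did any of 16352 genes (0.0%), of which 1725 had an unadjusted p under 0.05; edgeR called 1 gene and DESeq2 70, none of them a member. Acta2 was at 0.08 ± 0.49 and Mylk at -0.09 ± 0.51. Without KO + IgG replicate 4 they were at 0.11 and -0.13, and Krt5 turned from 0.03 to -0.05. The 2 effects that are pooled had opposite signs for the contractile genes, so their difference was tested itself, as the antibody effect minus the knockout effect over 19 libraries. That difference was 2.13 ± 0.92 for Oxtr (adjusted p = 0.602), the only member with an unadjusted p under 0.05. It was 2.46 ± 1.31 for Cnn1 (adjusted p = 0.689), 1.92 ± 0.94 for Acta2 (adjusted p = 0.655), 1.92 ± 1.36 for Myh11, 1.69 ± 0.98 for Mylk and 1.34 ± 0.82 for Tagln. It was smaller for Krt17 (0.99), Krt5 (0.55), Trp63 (-0.41) and Krt14 (-0.63). Without KO + IgG replicate 4 it was 1.82 for Oxtr, 2.60 for Cnn1 and 1.957 for Acta2. No member passed, and 1 of 16352 genes did (0.00612%), so opposite effects of antibody and knockout on these genes were not shown.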

How the data were processed

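Bulk RNA of 23 dissociated PyMT tumors was sequenced by QuantSeq, a 3′ mRNA method. Reads went through the BlueBee QuantSeq pipeline per the methods of the study, and the submitters' processing notes name STAR, HTSeq, DESeq2 and GRCm39. The deposited signal values are normalized counts: the authors divided reads by a size factor for each library, in separate tables of 19 and 8 libraries that share the 4 KO + IgG libraries. Dividing by the smallest step returned whole reads for 100% of values within 0.0001% (in WT + IgG replicate 1 a read is worth 0.996, so rounding cannot be told apart), and these reads gave CPM and the input of edgeR 4.0.16 and DESeq2 1.42.0. A symbol was found for 47224 of 47643 identifiers.

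The main test was limma 3.58.1 (R 4.3.3; moderated with a mean trend, two-sided, Benjamini-Hochberg adjustment, threshold 0.05) on log2(normalized count + 1), over genes averaging 5 normalized counts or more in the libraries compared. Members also had two-sided exact permutation tests. All 10 members were named, with up to 5 genes past the threshold of each other list or else up to 2 by smallest p, and the 5 genes most like Krt14 and Acta2. Members and lists were chosen with earlier results of these data known. Alternatives covered pseudocounts, filters, TMM and CPM scaling, edgeR, DESeq2, a replicate block, an experiment term and the removal of single libraries. The fits were checked on simulated counts with the same dispersion for every gene. That check does not cover the wide and uneven spread of the members. No libraries of a group were duplicates (chi-square per degree of freedom at least 15.9).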

Additional observations from a re-analysis of the deposited data

Results flagged for a closer look

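Of 50 combinations of member and group, 3 held a library that lay apart from its group by Dixon's criterion at 95%, which chance gives in about 1 of 20 groups. Anti-IL-38 replicate 2 held 145.4 CPM of Krt5, with the next library of the group at 39.2 CPM, and 24.54 CPM of Krt17, with the next at 9.66 CPM. KO + IgG replicate 1 held 77.81 CPM of Myh11, with the next library of the group at 32.7 CPM. Without anti-IL-38 replicate 2 the log2 fold change against IgG1 was -0.28 for Krt5 and 0.18 for Krt17, and without KO + IgG replicate 1 that of Myh11 against WT + IgG was -1.25.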

How the results depend on the processing

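No member passed the threshold under any limma alternative or in edgeR; DESeq2 called 3 members for KO + IgG against WT + IgG and 1 for WT + IgG against IgG1. Over all comparisons and alternatives 1225 log2 fold changes of members kept their direction and side of the threshold, 61 reversed and 4 came past it; the causes were not tested. In the pooled comparison Krt5 and Tagln turned to -0.00108 and -0.00465 under TMM and to -0.0148 and -0.0184 under CPM scaling. There Trp63 and Mylk were 0.0857 and 0.294 in edgeR and 0.0893 and 0.295 in DESeq2. Trp63 was 0.148 (edgeR) and 0.146 (DESeq2) for anti-IL-38 against IgG1 and 0.0381 and 0.0185 for the antibody effect minus the knockout effect, and Krt17 was -0.126 and -0.128 between the control groups.

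All genes called numbered 1 with an experiment term, 1 in edgeR and 70 in DESeq2 in the pooled comparison, and 75 in DESeq2 for anti-IL-38. They numbered 0 in edgeR and 305 in DESeq2 for the knockout, 1036 in DESeq2 for the blockade, and 0 in edgeR and 22 in DESeq2 for the difference of effects. Between the controls they numbered 7 with a pseudocount of 0.5, 30 under CPM scaling and 738 in DESeq2. In the genotype experiment alone, whose small groups allow few permutations, 0 pairs passed, with r = -0.582 for Krt5 and Krt14 and -0.261 for Krt14 and Acta2.

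Same-numbered libraries did not deviate together (r from -0.169 to 0.0834; best with their own number in 0 of 5, 2 of 4, 0 of 4 and 3 of 4 pairs), so the numbers were not taken as pairs. With the replicate block 1 gene was called for anti-IL-38, 0 for the knockout and 36 between the controls; Trp63 and Mylk were 0.0701 and 0.0826 in the pooled comparison and Trp63 0.0506 for anti-IL-38. The block changed no call of a member, but it moved adjusted p from limma. For the knockout they were 0.0688 for Cnn1 (0.232 without the block), 0.0827 for Acta2 (0.210) and 0.0952 for Mylk (0.247). For the blockade that of Mylk was 0.258 (0.152 without the block).

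With single libraries left out, genes called ranged over 0 to 23 in the pooled comparison and 0 to 6 for anti-IL-38, both highest without IgG1 replicate 3. For the knockout they ranged over 0 to 7, with 7 without WT + IgG replicate 3 and also without KO + IgG replicate 4. The range was 0 to 2357 for the blockade (2357 without KO + IgG replicate 4) and 0 to 45 between the controls (45 without IgG1 replicate 1). It was 0 to 2 for the difference of effects. Pooled values ranged over -0.349 to 0.263 for Krt5, -0.0891 to 0.344 for Krt17, -0.322 to 0.0701 for Trp63, -0.214 to 0.285 for Acta2, -0.253 to 0.522 for Myh11, -0.294 to 0.393 for Cnn1, -0.364 to 0.108 for Mylk and -0.21 to 0.164 for Tagln, with anti-IL-38 replicate 2 or IgG1 replicate 5 left out at each lower end. For anti-IL-38 Krt5 ranged over -0.343 to 0.747 and Trp63 over -0.655 to 0.0506. Trp63 ranged over -0.0529 to 0.202 for the knockout and -0.0182 to 0.72 for the blockade. Between the controls Krt14 ranged over -0.395 to 0.0681 and Krt17 over -0.044 to 0.539. Krt5 ranged over -0.0936 to 0.996 for the difference of effects, and r of Krt17 and Oxtr over -0.489 to 0.319. For the scarcest members the counts limit precision, down to 13 reads.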
